A study of Mus musculus with 9 samples.

Results

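Glucocorticoid signalling in mouse liver was followed here through 9 genes, which are the receptor gene Nr3c1, the hormone-activating enzyme gene Hsd11b1 and the target genes Tsc22d3, Fkbp5, Zbtb16, Tat, Sgk1, Dusp1 and Errfi1. They were found by symbol among the 20325 genes of each deposited table, all 9 were present, and all 9 passed the filter on low counts. The set was chosen by name with earlier results of these livers known, and Zbtb16 was chosen by its measured fall in colonised livers. Zbtb16 values in comparisons with colonised livers are therefore a description without a test, and Zbtb16 is left out of the counts there.

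Polyadenylated liver RNA was sequenced from male mice of the strain C57BL/6J, all fed chow and with no engineered allele named, in 3 groups of 3 livers. GF mice stayed germ-free, and GF+SCFA mice stayed germ-free while drinking 67.5 mM acetate, 25.9 mM propionate and 40 mM butyrate for a time the labels do not give. ConvD mice were born germ-free, received donor cecal contents in a single gavage at 15 weeks of age and carried that microbiota for 4 weeks. Age is 14 weeks in the series design but 19 weeks at dissection in the growth protocol, and animals of a group shared cages, so cage and group cannot be told apart. The labels give neither the hour of dissection nor a hormone level. Samples of a group are called biological replicates without the animal being named, so p-values here reflect only sample-to-sample spread, which may be technical in part.

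Each library held 18193071 to 21627696 expected counts, the read numbers that RSEM assigns to a gene. Hepatocyte markers summed to 127584 to 153484 TPM (abundance scaled for transcript length and depth) in GF livers and 125734 to 153102 TPM in ConvD livers, and 18 of 18 were detected, so the tissue label held. Macrophage markers summed to 363 to 510 TPM in GF and 575 to 801 TPM in ConvD livers, with 9 of 15 passing as higher. Neutrophil and monocyte markers summed to 5.70 to 9.74 TPM in GF and 28.9 to 45.6 TPM in ConvD livers (4 of 7 tested higher), and B and plasma cell markers to 2.95 to 4.49 and 7.07 to 9.48 TPM (1 of 5 higher). Of 10 endothelial markers 1 was lower in ConvD than in GF livers. By edgeR 0 of 11 stellate, 6 biliary and 5 erythroid markers tested passed there. At an unadjusted p under 0.05, 2 biliary and 2 erythroid markers passed, against 28.6% of all genes. DESeq2 called 2 erythroid markers. Against GF+SCFA livers, ConvD livers were higher in 4 of 15 macrophage, 5 of 7 neutrophil and monocyte and 3 of 5 B and plasma cell markers. They were also higher in 5 of 11 stellate and 1 of 6 biliary markers, against 9.44% of all genes, with 0 lower in any of these lists. Biliary markers summed to 49.5 to 51.2 TPM in GF and 26.9 to 31.1 TPM in GF+SCFA livers, with 0 of 6 passing between them. Of 11 stellate markers 1 was lower in GF+SCFA than in GF livers. In whole tissue, fewer cells of a type and less RNA per cell cannot be told apart. The part of these marker differences in the results on the 9 genes was not tested.

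Glucocorticoids are adrenal steroids, corticosterone in mice, whose blood level follows the day and rises with fasting and stress. The enzyme encoded by Hsd11b1 regenerates active corticosterone from its inert 11-keto form inside the hepatocyte. The hormone binds the receptor encoded by Nr3c1, which is held in the cytosol by heat shock protein complexes, and the receptor then enters the nucleus, binds short inverted repeats in DNA and raises or lowers nearby genes. In liver this favours glucose production and amino acid breakdown.

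Promoter sequence is shown first, because the target genes differ in what lies just upstream of their start sites. RefSeq windows of the build GRCm38.p6 were found for 7 of the 9 genes, and Nr3c1 and Zbtb16 were not among those used. The 250 bases upstream of each start were searched on both strands for 4 motifs. These were the inverted repeat GNACANNNTGTNC that the receptor binds as a dimer, the single arm AGAACA, which overlaps that repeat, the cyclic AMP response element TGACGTCA and the E-box CACGTG of clock factors. The inverted repeat was in 0.387% of 32851 windows of all genes and, among these genes, only in 1 of 6 windows of Sgk1. The single arm was in 16.1% of all windows and in 4 of the 15 windows of these 7 genes, which belong to Sgk1 and Tsc22d3. TGACGTCA was in 1.55% of all windows and in 2 of the 15, which belong to Dusp1 and Errfi1. CACGTG was in 6.02% of all windows and in 3 of the 15, which belong to Dusp1, Fkbp5 and Sgk1. The windows of Tat and Hsd11b1 held none of the 4, and a match in letters is a description and not a site shown to be bound. In the following stretches of 100 bases capitals mark the inverted repeat (Sgk1), the single arm on the other strand (Tsc22d3), the cyclic AMP response element (Dusp1, Errfi1) and the E-box (Fkbp5). They lie at chr10:21993647-21993746 (plus strand), chrX:140600663-140600762 (minus), chr17:26508571-26508670 (minus), chr4:150854964-150855063 (plus) and chr17:28486274-28486373 (minus).
Sgk1: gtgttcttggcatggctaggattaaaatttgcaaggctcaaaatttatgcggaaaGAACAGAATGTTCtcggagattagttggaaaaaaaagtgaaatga
Tsc22d3: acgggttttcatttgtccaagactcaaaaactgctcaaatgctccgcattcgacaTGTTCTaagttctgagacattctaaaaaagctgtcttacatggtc
Dusp1: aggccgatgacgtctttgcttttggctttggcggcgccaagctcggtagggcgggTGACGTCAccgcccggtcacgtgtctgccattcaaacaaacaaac
Errfi1: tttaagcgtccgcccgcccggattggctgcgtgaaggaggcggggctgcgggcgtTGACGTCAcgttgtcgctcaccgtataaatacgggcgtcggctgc
Fkbp5: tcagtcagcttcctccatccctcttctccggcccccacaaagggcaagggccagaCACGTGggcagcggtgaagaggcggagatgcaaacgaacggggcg

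Colonised livers were first set against germ-free ones, which asks what a microbiota changes in these genes. Of the 8 genes tested, Tsc22d3, Fkbp5, Tat and Sgk1 were lower in ConvD livers, 0 were higher and 4 did not pass an adjusted p of 0.05 (edgeR quasi-likelihood test with Benjamini-Hochberg adjustment over 12037 genes). Over all genes tested, 12.8% were called, 6.90% as lower and 5.93% as higher, so 46.2% of calls were higher, against 66.1% with upper-quartile factors and 73.1% with library totals. The median log2 fold change was -0.25 over the 8 genes and 0.00 over all genes. TPM did not overlap between the groups, with ConvD lower, in the same 4 genes and in 8.55% of all genes. The calls of Tsc22d3 and Tat held under each of the 20 alternatives run. Those of Fkbp5 and Sgk1 were lost in 11 and 13 of them, so that leaving out GF replicate 2, GF+SCFA replicate 2 or any ConvD liver left 2 calls, as did scaling by library totals.

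**Figure D1:**
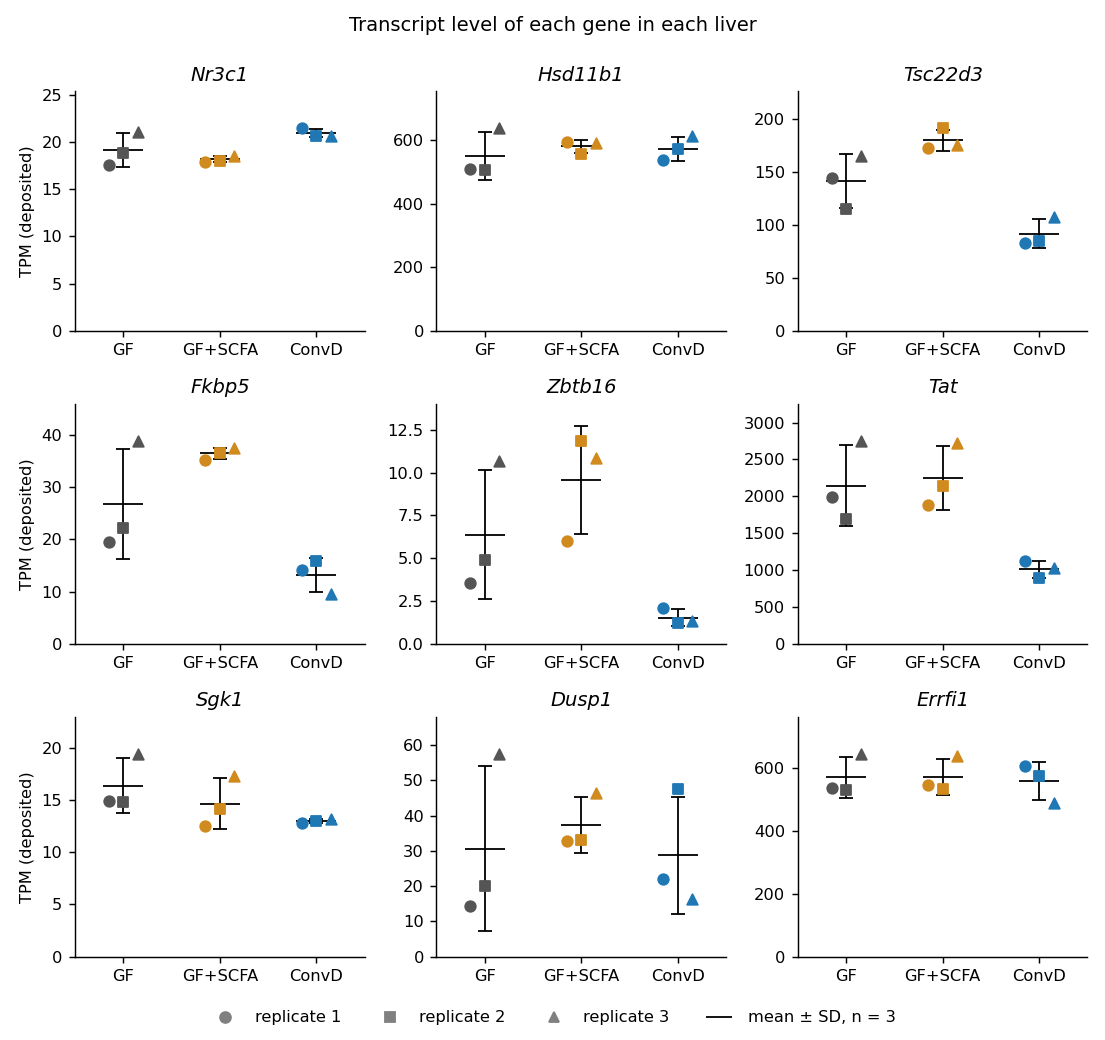
TPM of the 9 genes (one panel each, linear axes from 0) in the GF, GF+SCFA and ConvD livers; symbols are single livers by replicate number, and bars are mean ± SD with n = 3. The 3 ConvD livers lie below all 6 germ-free livers for Tsc22d3, Fkbp5, Zbtb16 and Tat, while Nr3c1, Hsd11b1 and Errfi1 stay within a narrow range.

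The receptor and its activating enzyme varied little. Nr3c1 was 17.5, 18.8 and 21.1 TPM in the GF livers, 17.9, 18.03 and 18.6 TPM in the GF+SCFA livers and 21.5, 20.7 and 20.7 TPM in the ConvD livers. The ConvD livers lay within the GF range or just above it, and the log2 fold change against GF was 0.07 (SE 0.07, n = 3 each, edgeR adjusted p = 0.547). Its 95% confidence interval ran from 0.950-fold to 1.15-fold, which bounds a difference in receptor transcript. ConvD livers were above GF+SCFA livers without overlap in Nr3c1, as were 25.7% of all genes, and the difference did not pass (log2 fold change 0.12, SE 0.07, edgeR adjusted p = 0.228).

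Hsd11b1 was far more abundant per length than the receptor gene, at 510, 506 and 639 TPM in GF, 594, 557 and 592 TPM in GF+SCFA and 538, 572 and 613 TPM in ConvD livers. The 3 groups overlapped throughout. Its log2 fold change in ConvD against GF was 0.00 (SE 0.09, edgeR adjusted p = 0.999), with a 95% interval from 0.874-fold to 1.15-fold.

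Tsc22d3 encodes GILZ, a leucine zipper protein that carries part of the anti-inflammatory action of glucocorticoids. It was 144, 115 and 165 TPM in GF, 173, 192 and 175 TPM in GF+SCFA and 83.2, 84.4 and 107 TPM in ConvD livers. The 3 groups did not overlap, with ConvD lowest and GF+SCFA highest. ConvD fell by 0.68 on the log2 scale against GF (SE 0.13, edgeR adjusted p = 0.00724, and 1.05e-05 to 0.0315 over the alternatives). The fall against GF+SCFA was to 0.482 of their level (log2 fold change -1.05, SE 0.13, adjusted p = 0.000413).

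Fkbp5 encodes a co-chaperone that lowers the hormone affinity of the receptor and is itself induced by it, closing a feedback loop. It was 19.5, 22.1 and 39.0 TPM in GF, 35.4, 36.6 and 37.6 TPM in GF+SCFA and 14.1, 15.9 and 9.45 TPM in ConvD livers. GF replicate 3 stood with the GF+SCFA livers, the other GF livers were lower, and no ConvD liver reached any germ-free one. ConvD fell by 1.08 against GF on the log2 scale (SE 0.26, edgeR adjusted p = 0.0372, and 0.00141 to 0.102 over the alternatives). Without GF replicate 3 the fall was 0.78 (adjusted p = 0.024). Against GF+SCFA livers, among which Fkbp5 had an SD of 1.11 TPM around 36.5 TPM, ConvD fell by 1.57 (SE 0.26, adjusted p = 0.00771).

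Tat encodes tyrosine aminotransferase, the first enzyme of tyrosine breakdown and a classic hepatocyte gene induced by glucocorticoids. It was the most abundant of the 9 genes per length. Its TPM was 1989, 1687 and 2752 in GF, 1876, 2143 and 2720 in GF+SCFA and 1115, 888 and 1024 in ConvD livers. The GF and GF+SCFA livers overlapped, and each ConvD liver was below all 6 of them. ConvD livers had 0.453 of the GF level (95% interval 0.355 to 0.578; log2 fold change -1.14, SE 0.16, edgeR adjusted p = 0.00153, and up to 0.00794 over the alternatives). They had 0.422 of the GF+SCFA level (adjusted p = 0.000531).

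Zbtb16 encodes PLZF, a zinc finger transcription factor that glucocorticoids induce in many tissues and that also marks innate-like lymphocytes. It was 3.57, 4.91 and 10.7 TPM in GF, 5.99, 11.9 and 10.8 TPM in GF+SCFA and 2.07, 1.19 and 1.32 TPM in ConvD livers, from expected counts of 78 to 788 per library. The ConvD livers were lowest without overlap, which is what the gene was chosen for, and the log2 fold change against GF was -2.11, or -1.60 without GF replicate 3. Markers of T cells, NK cells and innate-like lymphocytes summed to 23.7 to 32.2 TPM in GF, 28.1 to 29.7 TPM in GF+SCFA and 25.8 to 31.5 TPM in ConvD livers. None of the 22 was at 0 in every liver. Rora, which is also on the clock list, was the largest of those tested, at means of 11.6, 11.4 and 9.89 TPM. The sum therefore says little about the other markers. Of the 13 markers tested, 0 passed in ConvD against GF by edgeR and 0 by DESeq2. At an unadjusted p under 0.05, 0 passed, against 28.6% of all genes.

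Sgk1 encodes a serine/threonine kinase that acts on ion channels and transporters and is induced by glucocorticoids and mineralocorticoids. Its TPM was 14.9, 14.8 and 19.4 in GF, 12.5, 14.1 and 17.3 in GF+SCFA and 12.8, 13.0 and 13.2 in ConvD livers. The ConvD livers were close together and below each GF liver, but within the GF+SCFA range. ConvD fell by 0.38 against GF on the log2 scale (SE 0.11, edgeR adjusted p = 0.041, and 0.014 to 0.158 over the alternatives). Without GF replicate 3 the adjusted p was 0.12. Against GF+SCFA it did not pass (log2 fold change -0.25, SE 0.11, adjusted p = 0.145). The mean length of its transcripts, weighted by the abundance of the 6 listed, was 2455 to 2471 bases in GF, 2461 to 2463 bases in GF+SCFA and 2467 to 2476 bases in ConvD livers.

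Dusp1 encodes a phosphatase that switches off MAP kinases and is induced by glucocorticoids as well as within minutes by stress. It was the most variable gene relative to its mean among GF livers, at 14.4, 19.9 and 57.6 TPM, against 32.7, 33.0 and 46.5 TPM in GF+SCFA and 22.1, 47.6 and 16.4 TPM in ConvD livers. The groups overlapped, and the log2 fold change in ConvD against GF was -0.12 with a 95% interval from -1.60 to 1.35 (edgeR adjusted p = 0.925). Its sign was not stable: it was 0.62 without GF replicate 3 (adjusted p = 0.52), 0.06 without ConvD replicate 1, 0.14 without ConvD replicate 3 and 0.02 with limma on TPM.

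Errfi1 encodes MIG6, an inhibitor of the epidermal growth factor receptor that glucocorticoids can induce. It was 536, 529 and 646 TPM in GF, 546, 534 and 637 TPM in GF+SCFA and 607, 576 and 490 TPM in ConvD livers. The groups overlapped, with a log2 fold change in ConvD against GF of -0.10 (SE 0.09, edgeR adjusted p = 0.522) and a 95% interval from 0.815-fold to 1.07-fold. Of 11 other genes of epidermal growth factor receptor feedback, 0 fell and 1 rose in ConvD against GF, a share of 9.09% higher near the 5.93% of all genes. The riser was Dusp4, a nuclear MAP kinase phosphatase, at 0.927 ± 0.387 TPM in GF and 1.91 ± 0.256 TPM in ConvD livers (SD, n = 3, edgeR adjusted p = 0.0299). That call was lost without GF replicate 1, ConvD replicate 1 or ConvD replicate 2. At an unadjusted p under 0.05, 0 of the 11 were lower and 2 higher, against 28.6% of all genes in either direction. DESeq2 called 0 lower and 1 higher.

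**Figure D2:**
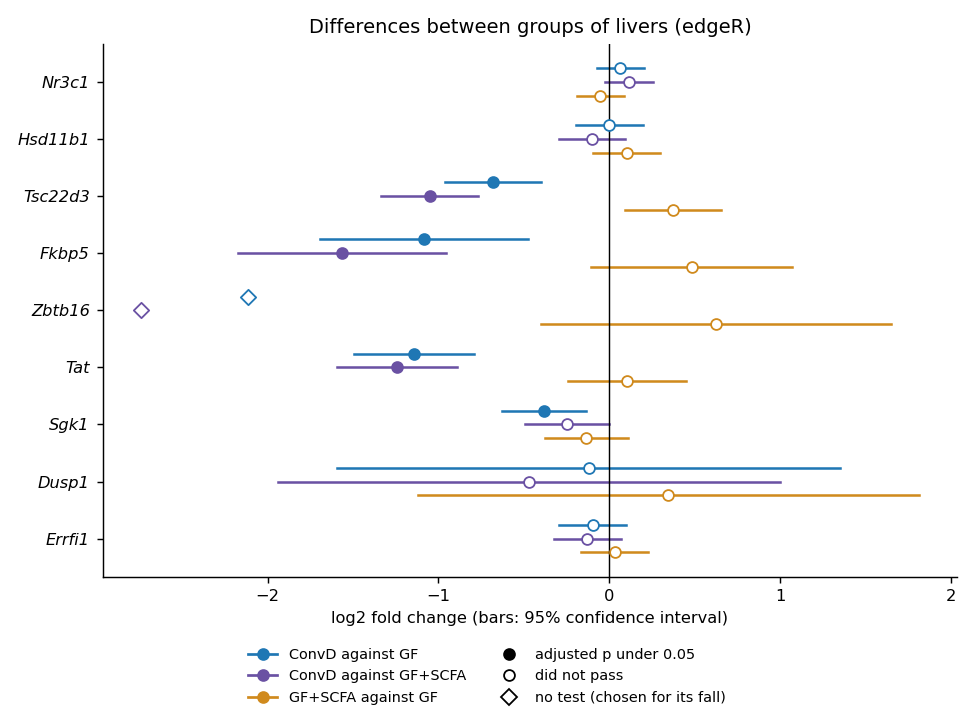
Log2 fold changes of the 9 genes (rows) in the 3 comparisons (colours), with 95% confidence intervals as bars; filled symbols passed an adjusted p of 0.05, open circles did not, and diamonds mark Zbtb16 where no test is given. Tsc22d3, Fkbp5 and Tat lie left of 0 with filled symbols in both comparisons with ConvD, Nr3c1, Hsd11b1 and Errfi1 lie near 0, and the interval of Dusp1 spans -1.60 to 1.35 in ConvD against GF.

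By mean GF level per length the order was Tat (2142 ± 549 TPM), Errfi1 (570 ± 65.6), Hsd11b1 (552 ± 75.9), Tsc22d3 (141 ± 25.3), Dusp1 (30.6 ± 23.5), Fkbp5 (26.9 ± 10.6), Nr3c1 (19.1 ± 1.82), Sgk1 (16.4 ± 2.65) and Zbtb16 (6.39 ± 3.78; SD, n = 3 each). The neighbours Errfi1 and Hsd11b1 differed by less than 1 SD of either, as did Dusp1 and Fkbp5. Fkbp5 and Nr3c1 differed by less than the SD of Fkbp5. Nr3c1 and Sgk1 differed by slightly more than 1 SD of either, though their GF livers overlapped (17.5 to 21.1 and 14.8 to 19.4 TPM). Tat, Tsc22d3 and Zbtb16 stood apart from their neighbours by more than 1 SD of either. In ConvD livers the mean of Nr3c1 (21.0 ± 0.468 TPM) was above that of Fkbp5 (13.2 ± 3.32 TPM), the reverse of GF livers, where the 2 genes overlapped.

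**Figure D3:**
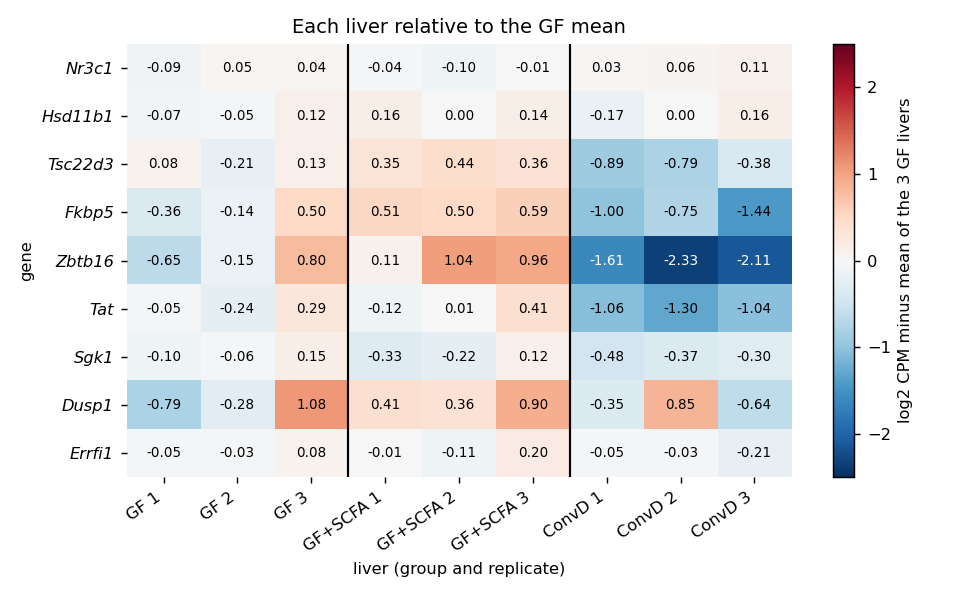
Log2 CPM (counts scaled to a common library total) of each gene (rows) in each of the 9 livers (columns) minus the mean of the 3 GF livers; red is higher and blue lower than that mean. GF replicate 3 is above the GF mean for all 9 genes, by 0.80 for Zbtb16 and 1.08 for Dusp1, and the 3 ConvD columns are blue for Tsc22d3, Fkbp5, Zbtb16, Tat and Sgk1.

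Livers of a group differed along the same genes. In CPM, GF replicate 3 was the highest GF liver for 8 of the 9 genes, against 36.8% of all genes tested. In TPM it was 1.87-fold the mean of the other GF livers for Fkbp5, 2.52-fold for Zbtb16, 1.497-fold for Tat and 3.36-fold for Dusp1. GF+SCFA replicate 3 was the highest of its group for 6 of the 9 genes, against 33.3% of all genes. Among ConvD livers the highest value fell to replicate 1 for 1 gene, to replicate 2 for 3 and to replicate 3 for 5. In TPM, GF replicate 3 was highest of the GF livers for 17 of 20 tested genes of the immediate early response. Genes of this response rise within minutes of a stimulus such as handling. The share of all genes highest in that liver was taken in CPM only, and the 2 measures differ there. Nr3c1 was 21.1 TPM in GF replicate 3 against 17.5 and 18.8 TPM, but 81.5 CPM against 74.3 and 81.8 CPM. The 17 therefore has no share of all genes on the same measure beside it. Of genes named after their values were seen, Junb was 18.9 TPM in GF replicate 3 against 5.99 and 8.15 TPM in the other GF livers. Gadd45g was 92.6 TPM against 32.9 and 49.8 TPM. Between ConvD and GF livers Cyr61, a secreted matrix protein gene, rose by 0.65 on the log2 scale (edgeR adjusted p = 0.0371). Klf4, a transcription factor gene, fell by 0.85 (adjusted p = 0.0417), while the other 18 did not pass. That is 5% of the 20 lower and 5% higher, near the 6.90% and 5.93% of all genes. At an unadjusted p under 0.05, 2 were lower and 2 higher, against 28.6% of all genes in either direction. DESeq2 called 3 lower and 1 higher. The call of Klf4 was lost without GF replicate 3, any GF+SCFA liver or any ConvD liver, that of Cyr61 without GF replicate 1 or 2 or ConvD replicate 1 or 2, and the part of this response in the values of the 9 genes was not tested.

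Livers of supplemented and plain germ-free mice were compared to ask whether fatty acids alone, without bacteria, move the same genes. Of the 9 genes 0 passed by edgeR and DESeq2 called 0, while edgeR called 0.0415% of all genes. At an unadjusted p under 0.05, 1 gene (Tsc22d3) passed by edgeR, as did 12.3% of all genes. The GF+SCFA and the ConvD values share the GF livers as reference. Tsc22d3 was higher in GF+SCFA livers without overlap, as were 4.17% of all genes, with a log2 fold change of 0.37 (SE 0.13, adjusted p = 0.298). Fkbp5 gave 0.48 (SE 0.25, adjusted p = 0.493) and 0.78 without GF replicate 3 (adjusted p = 0.0722). Zbtb16 gave 0.63 (SE 0.43, adjusted p = 0.611) and 1.13 without GF replicate 3 (adjusted p = 0.214), with a 95% interval from 0.757-fold to 3.14-fold. The interval of Tat ran from 0.845-fold to 1.36-fold, and that of Nr3c1 from 0.876-fold to 1.06-fold. Each interval holds the differences that the livers leave possible for that gene, before adjustment over all genes, and is not a limit of detection.

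Colonised and fatty-acid-supplemented livers were compared directly as well. Of 8 genes tested, Tsc22d3, Fkbp5 and Tat were lower in ConvD, 0 were higher and 5 did not pass by edgeR, with the same 3 under each of the 20 alternatives. Of all genes 18.4% were called, 8.97% as lower and 9.44% as higher, so 51.3% of calls were higher, against 66.8% with upper-quartile factors and 72.4% with library totals. TPM did not overlap, with ConvD lower, in these 3 genes and in 10.3% of all genes. The median log2 fold change was -0.36 over the 8 genes and 0.01 over all genes. Zbtb16, described without a test, was at 0.160 of the GF+SCFA mean in TPM.

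Other known glucocorticoid target genes were taken from a list of 52, all tested, that leaves out the 9 and was written with earlier results of these livers known. In ConvD against GF livers 11 fell, 5 rose and 36 did not pass by edgeR, which is 21.2% lower and 9.62% higher against 6.90% and 5.93% of all genes. The median log2 fold change was -0.38, against 0.00 over all genes, and DESeq2 called 17 lower and 5 higher. Pck1, which encodes the cytosolic phosphoenolpyruvate carboxykinase of gluconeogenesis, was 2301 ± 211 TPM in GF, 2199 ± 216 TPM in GF+SCFA and 1305 ± 102 TPM in ConvD livers (SD, n = 3, edgeR adjusted p = 0.00018 in ConvD against GF). Foxo1, a transcription factor of fasting, was 13.0 ± 2.27 TPM in GF and 8.09 ± 0.226 TPM in ConvD livers (adjusted p = 0.00018). The clock repressor genes Cry1 and Per2 fell by 1.48 and 0.84 on the log2 scale (adjusted p = 0.00018 and 0.000353).

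Further genes of this list are named after their values were seen. Il6ra, the interleukin 6 receptor chain that glucocorticoids raise in hepatocytes, fell from 27.1 ± 1.52 to 12.8 ± 2.33 TPM (edgeR adjusted p = 0.000753). Nfkbia, which encodes an inhibitor of NF-kappaB, fell by 0.45 on the log2 scale (adjusted p = 0.0195), and Klf15, a regulator of amino acid breakdown, fell by 0.42 (adjusted p = 0.00922). The risers were Lcn2, Tubb2a, Tgm2, Stom and the acute phase gene Orm1, which was 993 ± 59.0 TPM in GF and 1358 ± 93.5 TPM in ConvD livers (adjusted p = 0.0231). Igfbp1, which encodes a binding protein of insulin-like growth factors and is lowered by insulin, had the lowest fold change of the list without passing, from 320 ± 177 TPM in GF to 38.2 ± 15.3 TPM in ConvD livers (log2 fold change -3.13, adjusted p = 0.0637). Against GF+SCFA livers 14 of the 52 fell in ConvD and 4 rose, which is 26.9% and 7.69% against 8.97% and 9.44% of all genes. Between GF+SCFA and GF livers 0 of 52 passed by edgeR and 0 by DESeq2. At an unadjusted p under 0.05, 3 were higher and 0 lower, against 12.3% of all genes in either direction. Leaving out 1 liver at a time gave 8 to 14 lower and 3 to 5 higher in ConvD against GF, with 3 higher without GF replicate 1 or ConvD replicate 2.

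**Figure D4:**
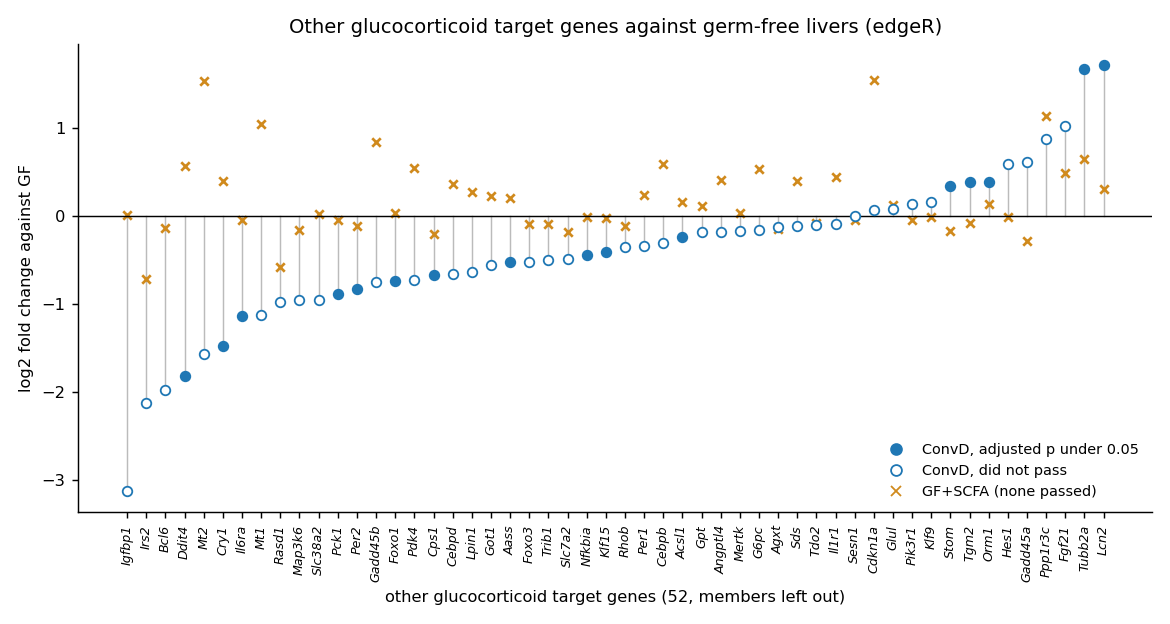
Log2 fold changes against GF livers of the 52 other glucocorticoid target genes, ordered by their value in ConvD; circles are ConvD (filled, adjusted p under 0.05) and crosses GF+SCFA. Filled circles lie below 0 for 11 genes and above 0 for 5, and Igfbp1 is at -3.13 with an open circle.

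The proteins that hold and ready the receptor were read from 18 chaperone and co-chaperone genes. In ConvD against GF livers 6 fell and 0 rose by edgeR, with a median log2 fold change of -0.34. At an unadjusted p under 0.05, 12 fell and 0 rose, against 28.6% of all genes in either direction. DESeq2 called 12 lower and 0 higher. Hspa8, the constitutive HSC70, was 1066 ± 82.1 TPM in GF and 653 ± 89.0 TPM in ConvD livers (SD, n = 3, edgeR adjusted p = 0.000687). Its partner Dnaja1 fell by 0.53 on the log2 scale (adjusted p = 0.00289). Stip1, which links HSP70 to HSP90, fell by 0.53 (adjusted p = 0.00302), and Dnaja2 fell by 0.27 (adjusted p = 0.0147). Fkbp4, the co-chaperone that favours nuclear entry of the receptor where Fkbp5 opposes it, fell by 0.38 (adjusted p = 0.0159) and is named after its value was seen. Without 1 liver at a time 4 to 9 of the 18 were lower, 4 without GF replicate 1 or ConvD replicate 1.

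Of 15 coregulator genes, among which the list counts the related mineralocorticoid receptor gene Nr3c2, 5 fell and 1 rose in ConvD against GF livers, with a median log2 fold change of -0.22. Med14, which encodes a Mediator subunit, fell by 0.41 on the log2 scale (edgeR adjusted p = 0.00614). The acetyltransferase genes Crebbp and Ep300 fell by 0.52 (adjusted p = 0.00952) and 0.36 (adjusted p = 0.0139). The riser, named after its value was seen, was Nr3c2, at 3.79 ± 0.455 TPM in GF, 3.14 ± 0.266 TPM in GF+SCFA and 5.51 ± 0.933 TPM in ConvD livers (SD, n = 3, adjusted p = 0.0285 against GF). That call was lost without GF replicate 1, GF replicate 3, ConvD replicate 1 or ConvD replicate 2, and without GF replicate 1 or ConvD replicate 2 the count of lower genes was 3.

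Genes that carry, reduce or clear corticosteroids gave 4 lower and 1 higher of 16 tested in ConvD against GF livers, with a median log2 fold change of -0.18. Srd5a1, a steroid 5-alpha-reductase that inactivates corticosterone, fell from 85.7 ± 9.36 to 54.3 ± 5.34 TPM (SD, n = 3, edgeR adjusted p = 0.00156). The steroid exporter gene Abcb1b fell by 1.06 on the log2 scale at a level under 1 TPM in each group (adjusted p = 0.00662). Cyp3a13 fell by 0.31 (adjusted p = 0.0259), and Cyp3a11, a cytochrome P450 of steroid and drug hydroxylation, was the riser at 3.93-fold (adjusted p = 0.00241). Cyp3a11 is one of several near-identical Cyp3a genes whose reads RSEM divides. Serpina6, which encodes the corticosteroid-binding globulin of blood and is also named after its value was seen, was 342 ± 58.4 TPM in GF and 299 ± 29.7 TPM in ConvD livers and did not pass (adjusted p = 0.061). Without GF replicate 2, GF replicate 3 or ConvD replicate 1, 2 of the 16 were lower.

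Core clock genes, which set and answer the daily corticosterone rhythm, gave 7 lower and 1 higher of 19 tested in ConvD against GF livers, with a median log2 fold change of -0.30. Cry1 and Per2 are among these 7 and also among the 52 targets. Ccrn4l, the deadenylase Nocturnin, was 38.2 ± 10.7 TPM in GF and 16.4 ± 0.701 TPM in ConvD livers (SD, n = 3, edgeR adjusted p = 0.00114). Without ConvD replicate 2, 4 of the 19 were lower. The hour of dissection is not given for any group, and its part in these values was not tested. Beside the 6.90% lower and 5.93% higher of all genes, the shares lower and higher were 33.3% and 0% for chaperones, 33.3% and 6.67% for coregulators, 25.0% and 6.25% for corticosteroid handling and 36.8% and 5.26% for the clock. Across all 148 genes of the 7 lists tested, 0 passed between GF+SCFA and GF livers by edgeR, and DESeq2 called 1 lower and 1 higher. At an unadjusted p under 0.05, 8 were lower and 8 higher, against 12.3% of all genes in either direction. These hits were not spread evenly, as the 19 clock genes alone held 4 of the lower and 4 of the higher. The DESeq2 call as lower was also a clock gene.

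Genes that followed the targets most closely over the 9 livers were sought among 9888 other genes averaging 50 or more expected counts per liver. The measure was the root mean square difference in log2 CPM after each gene was centred on its own mean, so a small value means the same rises and falls of the same size. For Tat the nearest were Parp16 (0.11), Tmc7 (0.11) and Pnrc1 (0.12). Tat itself had an SD of 0.63 on that scale. For Tsc22d3 they were Fmo5 (0.10), Ildr2 (0.10) and Ahctf1 (0.11), against its own SD of 0.50. For Fkbp5 they were Rapgef4 (0.23), Tfrc (0.25) and Parp16 (0.28), against 0.76, so Parp16 was near both Tat and Fkbp5. For Zbtb16 they were Ddit4 (0.49), an inhibitor of mTORC1 that is among the 52 targets, Eif4ebp3 (0.50) and the steroid hydroxylase gene Cyp17a1 (0.56), against 1.30. These 3 genes had log2 fold changes of -1.82, -1.64 and -1.30 in ConvD against GF. Because Zbtb16 was chosen for its fall in ConvD, their nearness follows from that choice and is a description only. For Dusp1 the nearest genes were B3galt1 (0.31), Lpin1 (0.35) and Srrm4 (0.36), against 0.70. For Sgk1 they were Arhgap5 (0.08), Paics (0.09) and Alg1 (0.09), against 0.22. Nr3c1, Hsd11b1 and Errfi1 moved so little, with SDs of 0.07, 0.12 and 0.12, that many genes were as near, and theirs are not named. Among the 9 genes themselves the nearest pair with a called member on both sides was Tsc22d3 and Tat, at 0.27.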

How the data were processed

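Polyadenylated liver RNA of 9 mice was measured by RNA-seq. Per the labels' protocols, libraries were made with a stranded Illumina mRNA kit. The tools named by the authors, per the submitters' processing notes, are RSEM 1.2.23 and Bowtie2, on mm9. The sources used here give no Bowtie2 version and no strand setting for counting, so reads of antisense neighbours may be mixed. The deposited files give expected counts (46.7% of those above 0 differ from a whole number by more than 0.005), TPM per the file headers, normalised by the authors for length and depth, and transcript lengths in another column; effective length equals length, so TPM carries no fragment-length correction. FPKM was not used.

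Expected counts were rounded and fitted with edgeR 4.0.16 in R 4.3.3 (filterByExpr, minimum count 10, 12037 genes; TMM factors 0.935 to 1.06; robust quasi-likelihood fit of 3 groups and 9 samples, 6 residual degrees of freedom; two-sided tests). Adjusted p-values cover all genes tested, with 0.05 as threshold. SEs were derived from the fold change and its F statistic (their ratio after taking the root of F), and 95% intervals use it. CPM values use TMM-scaled totals. Chi-square per degree of freedom between livers of a group was 11.1 to 53.4, so none were copies. The fits were also run on counts simulated with the spread that edgeR estimated from these livers. The outcome is not reported here. Alternatives used DESeq2 1.42.0 and limma 3.58.1.

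The 9 genes and the 7 pathway and 9 marker lists (267 of 268 list genes found) were chosen with earlier results of these data known. Named are the 9 genes, up to 4 genes of each pathway list with the smallest adjusted p in ConvD against GF, and the 3 nearest genes by profile; others are said to be named later, and some genes the rule names are not reported here. Some genes are in 2 lists. Promoters are RefSeq's, build GRCm38.p6, used for sequence only.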

Additional observations from a re-analysis of the deposited data

How the results depend on the processing

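Alternatives were other scalings, other filters, DESeq2, limma on log2(TPM + 1) and log2(TPM + 0.1), a fit without robust estimation, the groups compared alone, a replicate block and leaving out each liver. The count of the 8 genes changed in ConvD against GF was 4, 2 with library totals, and 2 to 3 without 1 liver; the call of Fkbp5 or Sgk1 was what was lost, with the same direction in each fit. In GF+SCFA against GF it was 0 and in ConvD against GF+SCFA 3 in all 20 alternatives. All genes changed in ConvD against GF numbered 1544, 884 and 856 with limma on log2(TPM + 1) and log2(TPM + 0.1), and 849 to 1466 without 1 liver (849, 918 and 936 without ConvD replicate 2, GF replicate 1 and ConvD replicate 1). In GF+SCFA against GF they numbered 5, 9 with library totals, 24 without a filter, 81 with DESeq2, 1 without robust estimation, 1 with limma at either pseudocount, and 0 to 173 without 1 liver (173 without GF replicate 3). In ConvD against GF+SCFA they numbered 2216 and 1383 to 2393 without 1 liver (1383, 1400 and 1465 without GF+SCFA replicate 2, GF+SCFA replicate 3 and ConvD replicate 2). Of 840 recomputed counts for gene lists, 710 were within 1.5 times the value reported. Library totals raised the share of ConvD against GF calls that were higher from 46.2% to 73.1%, upper-quartile factors to 66.1%, moving the median gene by 0.08 and 0.06. Near 0, signs turned: Hsd11b1 in ConvD against GF was -0.0019 with DESeq2 size factors, -0.0031 without a filter, -0.0074 with DESeq2, -0.0011 with the replicate block and -0.084 to 0.0817 without 1 liver. Dusp1 was 0.0165 and 0.0203 with limma at the larger and smaller pseudocount and -0.71 to 0.62 without 1 liver. In GF+SCFA against GF, Tat was -0.0672 to 0.261 and Errfi1 -0.060 to 0.099 without 1 liver. The cause was not tested. Deviations of livers correlated at -0.07 to 0.14 in 9 same-numbered pairs and at -0.13 to 0.11 in 18 other pairs. Between GF and GF+SCFA livers, same-numbered pairs gave 0.086, 0.077 and 0.14, and the other pairs -0.10 to 0.02. Whether the numbers pair these livers is thus not settled. With the replicate block 3 of 8 genes were called in ConvD against GF, Fkbp5 having an edgeR adjusted p of 0.0895. Dusp1 and Zbtb16 had the widest intervals of the 9 genes in GF+SCFA against GF, with 3 livers a group and 18193071 or more counts per library; whether depth limits them was not tested.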
